A study of Mus musculus with 24 samples.

Results

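Transcription factors that mark classes of neurons were followed through neural differentiation of mouse cells with a normal or a slow RNA polymerase II. The genes were chosen by symbol: Tbr1, Eomes, Dlx1, Dlx2, Dlx5, Isl1, Lhx3, Mnx1 and Tlx3. Each symbol matched 1 row of the expression table, which gave 9 of 22667 listed genes, and all 9 passed the filter on low counts that left 16627 genes for testing. Poly(A)+ RNA had been sequenced from wild-type (WT, wt/wt) cells and from slow/slow cells, which carry Polr2a[R749H] on both alleles. Polr2a encodes the catalytic subunit of RNA polymerase II, and this substitution lowers its elongation rate. The 4 stages were embryonic stem cells (ESCs) in 2i medium, neural precursor cells (NPCs) at day 7 in N2B27 medium, bead-purified PSA-NCAM+ cells at day 10, and neurons, which had been replated at day 7 with ascorbic acid and cAMP and grown for another 14 days. Each of the 8 groups held 3 samples from separate differentiation experiments, 24 samples in all. The lines were E14 ESCs, the mutation had been placed in both alleles by sequential targeting, and the number of slow/slow clones is not given in the sources used here. To differentiate, WT ESCs had been plated at 10000 and slow/slow ESCs at 30000 cells per cm2, so that plating density and genotype cannot be told apart after the ESC stage.

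Neuronal identity is set by combinations of such factors in dividing progenitors and young neurons. The distal-less homeobox factors Dlx1, Dlx2 and Dlx5 act in precursors of GABAergic, that is inhibitory, neurons of the ventral forebrain, while the T-box factors Eomes (Tbr2) and Tbr1 follow each other in cortical glutamatergic neurons, Eomes in intermediate progenitors and Tbr1 in deep-layer neurons. In the spinal cord, the LIM-homeodomain factors Isl1 and Lhx3 together specify motor neurons, in which the homeobox gene Mnx1 (HB9) is then active, whereas Lhx3 without Isl1 marks V2 interneurons. Tlx3 favours glutamatergic over GABAergic identity in dorsal spinal cord neurons and also acts in sensory neurons. Several of these genes have roles outside neurons: Eomes in mesendoderm and trophoblast, Isl1 in heart progenitors, and Isl1 and Mnx1 in the endocrine pancreas.

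Total counts per library ran from 32974432 to 104466886. Neurons had the pan-neuronal markers of their label. The 8 measured genes summed to 4124 to 4476 CPM (counts relative to the library total, scaled between libraries by TMM) in WT and 3312 to 3508 CPM in slow/slow neurons. The sums were 95.4 to 103 CPM in WT NPCs and 256 to 299 CPM in slow/slow NPCs. Markers of other cells were high in the neuron samples too. Neural progenitor genes summed to 977 to 1165 CPM in WT and 1166 to 1347 CPM in slow/slow neurons, above the NPCs of either genotype. Astrocyte genes summed to 166 to 205 CPM in WT and 84.4 to 96.2 CPM in slow/slow neurons, also above NPCs. In PSA-NCAM+ cells the pan-neuronal genes summed to 74.7 to 100 CPM in WT, about the level of WT NPCs, and to 220 to 570 CPM in slow/slow samples. Pluripotency genes still summed to 1514 to 2051 CPM there in WT and 778 to 821 CPM in slow/slow samples, so the PSA-NCAM+ stage is named here by its purification and not as neurons. NPCs are named by their label. Pluripotency genes summed to 2193 to 2265 CPM in WT NPCs and 1427 to 1638 CPM in slow/slow NPCs. The 4 measured neural progenitor genes summed to 268 to 285 CPM in WT NPCs, below WT ESCs (399 to 406 CPM), although 2 rose and 1 fell. Non-neural ectoderm and neural crest genes summed to 1049 to 1144 CPM in WT NPCs and 376 to 526 CPM in slow/slow NPCs. Comparisons with NPCs start from this mixed expression. Of the PSA-NCAM+ libraries, those numbered 1 lay farthest from their group means (root mean square log2 deviation 0.314 in WT and 0.447 in slow/slow, against 0.180 to 0.259 in the other 4 PSA-NCAM+ libraries and 0.0595 to 0.111 at the other stages), and results for that stage are also given without them. Gene counts do not separate the Polr2a alleles, so the mutation was not checked. In bulk RNA, fewer cells of a type and less RNA per cell cannot be told apart.

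In GRCm38, Dlx1 (ENSMUSG00000041911) is at chr2:71528113-71533981 on the plus strand, and Dlx2 (ENSMUSG00000023391) is its neighbour at chr2:71543408-71546754 on the minus strand. Dlx5 (ENSMUSG00000029755) is at chr6:6877805-6882085. Tbr1 (ENSMUSG00000035033) is at chr2:61802930-61814114 and Eomes (ENSMUSG00000032446) at chr9:118478212-118486132. The motor neuron genes Isl1 (ENSMUSG00000042258), Lhx3 (ENSMUSG00000026934) and Mnx1 (ENSMUSG00000001566) are at chr13:116298281-116309689, chr2:26200212-26208289 and chr5:29473034-29478470. Tlx3 (ENSMUSG00000040610) is at chr11:33200752-33203589. Antisense genes overlap Dlx1 (Dlx1as), Eomes (Gm33460) and Lhx3 (Gm27196) in the annotation, and as the use of strand in counting is not stated, reads of each pair cannot be told apart. The median log2 difference between genotypes of all genes on these 6 chromosomes lay between -0.13 and 0.15 at every stage, smaller in size than every member change called below. Chromosomes 8 and 15, which hold no member, stood apart: the median over chromosome 8 was 0.44 to 0.49 at all 4 stages, and over chromosome 15 it was -0.60, -0.57 and -0.56 at the stages before neurons and -0.08 in neurons. The median of every other chromosome lay between -0.14 and 0.15. The genotypes thus differed in median expression over chromosome 8 at all 4 stages, and over chromosome 15 at the stages before neurons. The paper reports that karyotyping gave WT/WT and slow/slow ESCs the same number of chromosomes. What underlies these medians, and their part in the members' differences, was not tested.

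Promoter sequences of 8 members were matched by symbol in RefSeq (GRCm38.p6), and those of 2 members that were lower and of 2 that were higher in slow/slow neurons are shown, so that the stretches can be compared. Each is the 150 bases just before the RefSeq start, on the gene's own strand, here the minus strand. Capitals mark matches, on either strand, to the E-box CANNTG, to CCAAT and to GGGCGG.
Dlx2, chr2:71546755-71546904: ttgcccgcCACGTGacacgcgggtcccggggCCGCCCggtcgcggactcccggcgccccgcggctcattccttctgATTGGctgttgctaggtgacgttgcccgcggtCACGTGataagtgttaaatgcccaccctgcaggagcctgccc
Mnx1, chr5:29478471-29478620: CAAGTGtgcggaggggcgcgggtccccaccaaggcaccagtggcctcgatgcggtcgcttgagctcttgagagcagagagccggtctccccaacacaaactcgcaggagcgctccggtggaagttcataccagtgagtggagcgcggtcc
Tlx3, chr11:33203589-33203738: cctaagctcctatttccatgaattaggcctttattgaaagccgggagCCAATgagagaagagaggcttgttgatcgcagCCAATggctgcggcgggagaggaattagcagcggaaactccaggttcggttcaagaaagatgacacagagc
Isl1, chr13:116309689-116309838: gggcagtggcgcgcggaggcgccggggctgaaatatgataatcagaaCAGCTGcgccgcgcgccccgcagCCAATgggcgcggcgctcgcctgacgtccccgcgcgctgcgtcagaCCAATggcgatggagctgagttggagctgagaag

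Over the whole 250 bases before the start, Dlx2 held 2 E-boxes and 1 CCAAT match, Mnx1 2 E-boxes and 3 CCAAT matches, Isl1 1 E-box and 2 CCAAT matches, and Tlx3 2 CCAAT matches and no E-box. GGGCGG had 1 match each in Dlx2, Mnx1 and Tlx3 and 0 in Isl1. Among all 32851 RefSeq promoters of that length, 66.2% held an E-box, 33.8% CCAAT and 32.7% GGGCGG, so these letters are common. Of the genes shown, the 2 lower ones held more E-boxes than the 2 higher ones. The promoter of Dlx1, which was also lower, held 0, so E-boxes did not set lower members apart. The homeodomain core TAATTA, searched in the same windows, is in 4.8% of promoters and, of the 8 members, in that of Tbr1, which held 2 matches. The box TATAAA is in 12.4% of promoters and was found in 1 of 2 Lhx3 promoters. A match is a description of the letters and not a bound site.

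All of these factors except Eomes had their highest level in neurons, and the genotype in which that level was reached differed between them. Per length, on the authors' mean RPKM of each group, Tlx3 was the most abundant in WT neurons (6.21), followed by Mnx1 (3.65), Isl1 (2.20), Dlx1 (2.19), Dlx2 (1.88), Dlx5 (1.43), Eomes (1.40), Tbr1 (0.20) and Lhx3 (0.17). In slow/slow neurons Tlx3 was again first (11.2) and Isl1 second (3.6), but Lhx3 came next (1.26), ahead of Dlx1 (0.85), Eomes (0.80), Mnx1 (0.76), Dlx2 (0.75), Dlx5 (0.36) and Tbr1 (0.27). These group means carry no error, so neighbours in either order are not shown to differ.

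The order of the 8 groups was read from TMM-scaled CPM, given as mean ± SD (n = 3). For the GABAergic genes, WT neurons came first, well above the next group. Dlx1 was at 5.99 ± 0.31 CPM in WT neurons, 2.12 ± 0.50 in slow/slow neurons and 0.186 to 0.627 in the 6 earlier groups, where each group's samples overlapped those of the next group in the order. Dlx2 was at 4.44 ± 0.55 CPM in WT neurons, after which slow/slow PSA-NCAM+ cells (1.88 ± 1.3), slow/slow neurons (1.62 ± 0.26) and WT PSA-NCAM+ cells (1.15 ± 0.47) could not be ordered, since their samples overlapped. Dlx5 was at 1.94 ± 0.072 CPM in WT neurons, and its second highest group was slow/slow ESCs (0.615 ± 0.14), just above slow/slow neurons (0.446 ± 0.048).

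Of the motor neuron genes, Mnx1 was highest in WT neurons (5.15 ± 0.18 CPM), followed by slow/slow neurons (0.973 ± 0.18) and WT NPCs (0.845 ± 0.078), which overlapped. Isl1 and Lhx3 had the opposite order. Isl1 was highest in slow/slow neurons (8.14 ± 0.62 CPM), then in WT neurons (5.48 ± 0.96), and 0.560 to 1.71 in the 6 earlier groups. Lhx3 was highest in slow/slow neurons (2.51 ± 0.20 CPM), and the next groups were slow/slow NPCs (0.415 ± 0.089) and WT neurons (0.365 ± 0.12), which overlapped. Tlx3 was highest in slow/slow neurons (14.7 ± 1.3 CPM) and then in WT neurons (8.93 ± 1.5). After neurons, it was highest in slow/slow ESCs, at 1.56 ± 0.093 CPM.

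Eomes had another order. It was highest in slow/slow ESCs (12.0 ± 1.5 CPM), after which WT ESCs (6.55 ± 0.31), slow/slow NPCs (6.48 ± 1.0), WT PSA-NCAM+ cells (5.90 ± 1.6) and WT neurons (4.92 ± 0.16) each overlapped the next, and it was lowest in slow/slow neurons (2.55 ± 0.68). Slow/slow ESCs thus had the highest Eomes level, apart from all other groups. In WT cells, ESCs lay above neurons without overlap, but they overlapped PSA-NCAM+ cells. Tbr1 stayed below 1 CPM on average in every group: 0.972 ± 0.32 CPM in slow/slow and 0.796 ± 0.22 in WT neurons, which overlapped, and no count at all in the 3 slow/slow ESC libraries.

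**Figure D1:**
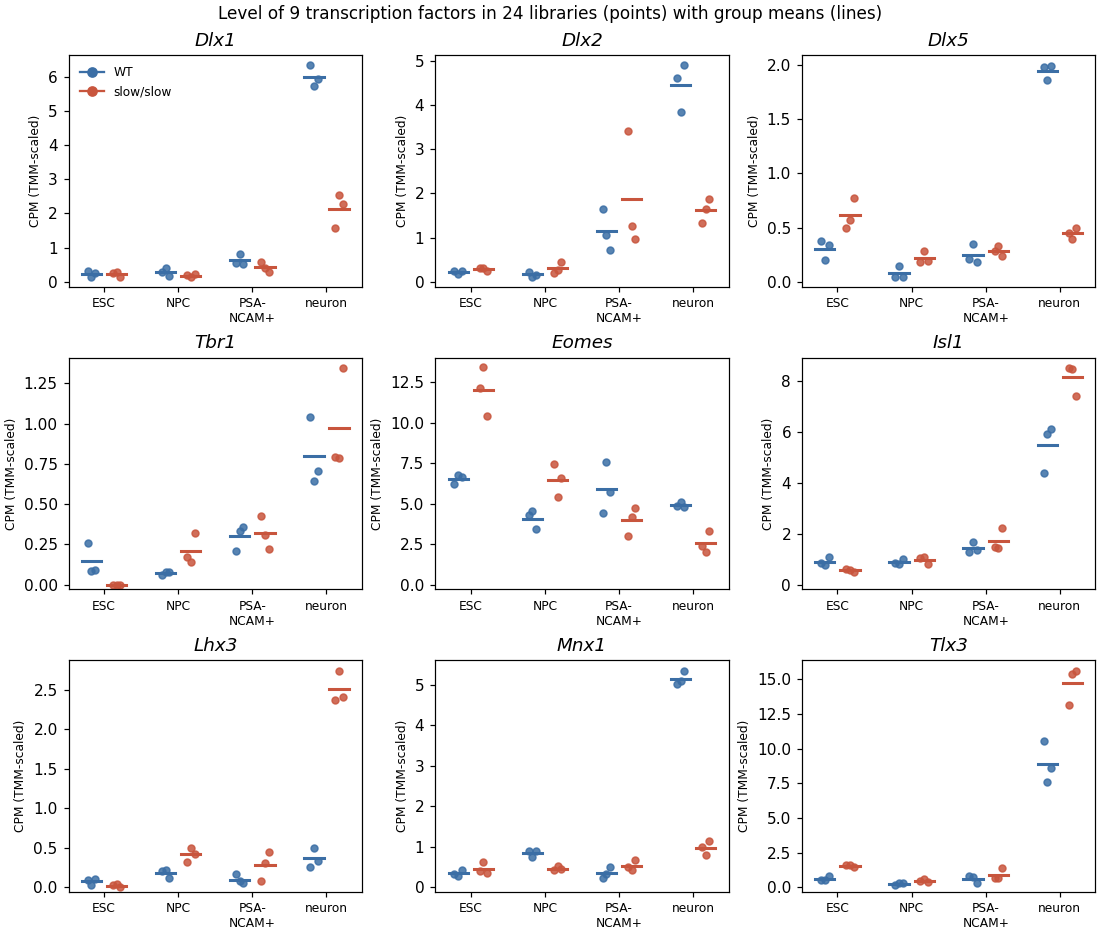
Level of the 9 transcription factors in TMM-scaled CPM (vertical axis, a separate linear scale for each gene) in the 3 WT (blue) and 3 slow/slow (red) libraries of each stage, with lines at the group means. Dlx1, Dlx2, Dlx5 and Mnx1 are highest in WT neurons, Isl1, Lhx3 and Tlx3 in slow/slow neurons, and Eomes in slow/slow ESCs, at 12.0 CPM on average.

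Differences were tested with edgeR's quasi-likelihood F test over all genes, and FDR below is its Benjamini-Hochberg adjusted p; a gene was called at an FDR under 0.05, and errors of log2 changes are SE. From NPCs to neurons, 8 of the 9 members rose in WT cells, where 80.2% of all tested genes were called, and the median log2 change was 3.43 over the members and 0.04 over all genes. The largest rises were those of Tlx3 (log2 change 5.09 ± 0.37), Dlx2 (4.71 ± 0.45), Dlx5 (4.54 ± 0.36) and Dlx1 (4.35 ± 0.33). Tbr1 rose by 3.43 ± 0.45, Isl1 by 2.63 ± 0.20 and Mnx1 by 2.61 ± 0.25. Lhx3 passed narrowly (1.02 ± 0.46, FDR = 0.0473) and was no longer called without any one of WT NPC libraries 1, 2 and 3 or WT neuron libraries 2 and 3 (FDR 0.060 to 0.192), while Eomes did not pass (0.27 ± 0.21, FDR = 0.235).

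In slow/slow cells, 8 members rose and Eomes fell from NPCs to neurons, where 75.0% of genes were called; the median over the members was 2.44. Tlx3 rose about as much as in WT (4.98 ± 0.36), whereas the rises of Dlx5 (1.02 ± 0.34, FDR = 0.0118), Mnx1 (1.07 ± 0.27) and Dlx2 (2.44 ± 0.43) were smaller in value and that of Lhx3 (2.61 ± 0.41) was larger. Eomes fell by 1.36 ± 0.21 on the log2 scale (FDR = 8.83e-06). The Dlx5 call was lost without slow/slow NPC library 1 (FDR = 0.061).

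From ESCs to NPCs, 4 members were called in WT cells, among 65.6% of all genes: Mnx1 rose (1.27 ± 0.28), and Dlx5 (-1.92 ± 0.40), Tlx3 (-1.22 ± 0.38) and Eomes (-0.68 ± 0.21) fell, Tlx3 not without WT ESC library 3 (FDR = 0.060). In slow/slow cells 6 were called, among 62.3% of all genes: Dlx5, Tlx3 and Eomes fell here too, while Isl1 (0.79 ± 0.22), Lhx3 and Tbr1 rose. Lhx3 went from 3 counts in all over the slow/slow ESC libraries to 63 over the NPC libraries, a ratio of 16.5 (exact 95% counting interval 5.39 to 82.1), and 30.2 without slow/slow ESC library 2, which leaves 1 ESC count. Tbr1 went from no count to 32 counts, which is at least 2.84-fold higher against a floor of 3 counts per library.

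From NPCs to PSA-NCAM+ cells, 7 members rose and Mnx1 fell in WT cells, where 41.3% of genes were called. Dlx2 rose most (2.77 ± 0.45, FDR = 7.55e-05), then Tbr1 (2.01 ± 0.49), Dlx5 (1.54 ± 0.40), Tlx3 (1.25 ± 0.38), Dlx1 (1.08 ± 0.33), Isl1 (0.69 ± 0.20) and Eomes (0.53 ± 0.21, FDR = 0.0479), and Mnx1 fell by 1.30 ± 0.27 on the log2 scale. With both PSA-NCAM+ libraries numbered 1 left out, Tlx3 was no longer called (FDR = 0.066) and Lhx3 was called lower (-1.48, FDR = 0.029). Single libraries carried 3 of these calls: Eomes was lost without any of 5 libraries (WT NPC 1, 2 or 3, WT PSA-NCAM+ 2 or 3), Dlx1 without WT NPC library 3 or WT PSA-NCAM+ library 2, and Tlx3 without WT NPC library 1 or WT PSA-NCAM+ library 1. In slow/slow cells, among 42.3% of genes called, Dlx2 (2.64 ± 0.43), Dlx1 (1.13 ± 0.36), Tlx3 (0.94 ± 0.35) and Isl1 (0.81 ± 0.20) rose and Eomes fell by 0.70 ± 0.21 on the log2 scale. Dlx2 was 1.96 without slow/slow PSA-NCAM+ library 1. Without both libraries numbered 1 Dlx1 was not called (FDR = 0.066), and Tlx3 was lost without slow/slow NPC library 1 or 3 or PSA-NCAM+ library 3, Dlx1 without slow/slow NPC library 2 or PSA-NCAM+ library 1, and Eomes without slow/slow NPC library 1.

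Slow/slow and WT cells were then compared at each stage. After the ESC stage they differed in plating density as well as in genotype. In neurons the 9 members divided: the 3 GABAergic genes, Mnx1 and Eomes were lower in slow/slow cells, Isl1, Lhx3 and Tlx3 were higher, and Tbr1 was not called. That is 8 of 9 members called, against 51.9% of all tested genes, and the median log2 change was -0.96 over the members and -0.06 over all genes. Scaling the libraries by the upper quartile moved the median of all genes to 0.08, and all 8 members kept their direction and their call.

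The 3 GABAergic genes were all lower. Dlx1 was at 6.32, 5.71 and 5.94 CPM in the WT neuron libraries and at 1.56, 2.53 and 2.27 CPM in the slow/slow ones (log2 change -1.50 ± 0.28, FDR = 0.000133). Dlx2, which is transcribed from the neighbouring locus, was at 4.60, 3.84 and 4.89 CPM in WT and 1.34, 1.64 and 1.86 CPM in slow/slow neurons (-1.47 ± 0.36, FDR = 0.00217). Every WT library lay above every slow/slow library for both genes. Their ratio hardly moved: 0.671 to 0.823 Dlx2 counts per Dlx1 count in WT and 0.650 to 0.857 in slow/slow neurons. Dlx5, which lies on another chromosome, was at 1.98, 1.86 and 1.99 CPM in WT and 0.447, 0.398 and 0.493 CPM in slow/slow neurons (-2.13 ± 0.30, FDR = 6.41e-06). It too did not overlap between genotypes, and it was 0.313 to 0.335 of the Dlx1 count in WT and 0.158 to 0.286 in slow/slow neurons.

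Mnx1, Lhx3 and Isl1, the 3 genes grouped here by their role in motor neurons, went different ways. Bulk RNA does not show whether they were expressed in the same cells. Mnx1 was at 5.02, 5.09 and 5.35 CPM in WT neurons and at 0.983, 0.784 and 1.15 CPM in slow/slow neurons, without overlap (-2.42 ± 0.25, FDR = 1.36e-07). Lhx3 was at 0.261, 0.498 and 0.337 CPM in WT and 2.37, 2.74 and 2.41 CPM in slow/slow neurons, from 17 to 35 and 88 to 220 counts (2.78 ± 0.40, FDR = 9.09e-06). It was thus the member with the largest rise, from the lowest WT level. Isl1 was at 4.37, 5.92 and 6.13 CPM in WT and 8.52, 8.48 and 7.43 CPM in slow/slow neurons (0.57 ± 0.19, FDR = 0.0143). The Isl1 groups did not overlap either, but without WT neuron library 1, the lowest, the difference was 0.42 and was not called (FDR = 0.0904).

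Ratios within a library do not depend on how libraries are scaled to each other. A ratio of a higher to a lower member restates their differences and is no further test. There were 0.052 to 0.098 Lhx3 counts per Mnx1 count in the WT neuron libraries and 2.10 to 3.49 in the slow/slow ones. Isl1 counts per Mnx1 count were 0.872 to 1.16 in WT and 6.45 to 10.8 in slow/slow neurons. Against Lhx3, Isl1 moved the other way, from 11.9 to 18.2 Isl1 counts per Lhx3 count in WT to 3.08 to 3.60 in slow/slow neurons, since Lhx3 differed more than Isl1.

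**Figure D2:**
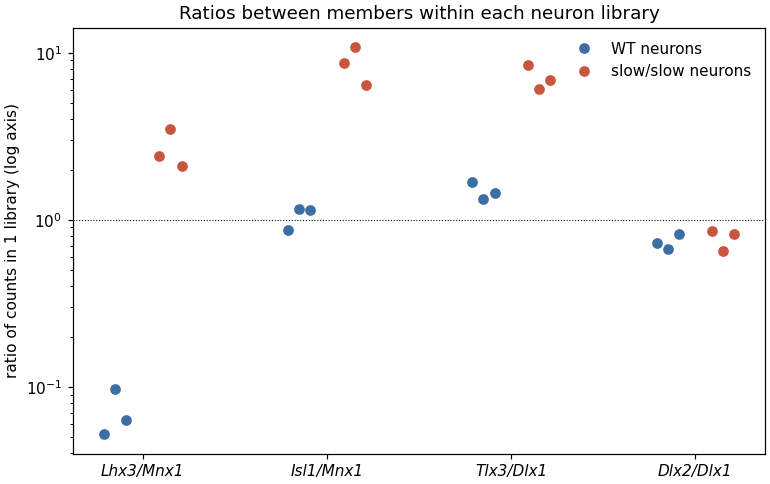
Ratio of the counts of 2 members within each neuron library (log axis), for the 3 WT (blue) and 3 slow/slow (red) libraries; the dotted line marks a ratio of 1. Lhx3 and Isl1 against Mnx1, and Tlx3 against Dlx1, separate the genotypes, as follows from the levels of the single genes. Dlx2 against Dlx1 stays between 0.650 and 0.857 in all 6 libraries.

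Tlx3, the glutamatergic selector of the dorsal spinal cord, was at 10.6, 7.59 and 8.60 CPM in WT neurons and 13.2, 15.4 and 15.6 CPM in slow/slow neurons, which did not overlap (0.72 ± 0.29, FDR = 0.0438). This call was the least secure of the 8: it was lost when any of WT neuron libraries 2 and 3 or slow/slow neuron libraries 1, 2 and 3 was left out (log2 changes 0.62 to 0.79, FDR 0.0556 to 0.138). Tlx3 counts per Dlx1 count were 1.33 to 1.67 in WT and 6.08 to 8.42 in slow/slow neurons.

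Of the T-box genes, Eomes was lower in slow/slow neurons, at 4.88, 5.10 and 4.78 CPM in WT and 2.35, 1.99 and 3.32 CPM in slow/slow libraries, without overlap (-0.96 ± 0.21, FDR = 0.000789). Tbr1 was at 1.04, 0.642 and 0.703 CPM in WT and 0.789, 0.784 and 1.34 CPM in slow/slow neurons. These values overlapped (0.27 ± 0.35, FDR = 0.543), and they rest on 40 to 73 counts per library, so a moderate difference was not detectable.

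**Figure D3:**
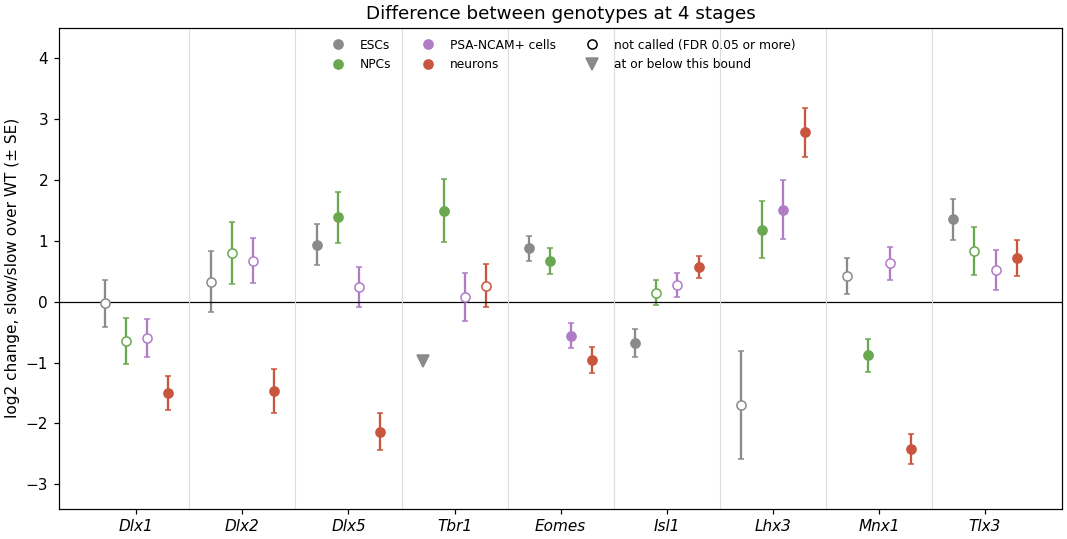
Fitted log2 change of slow/slow over WT cells ± SE for the 9 members (horizontal axis) in ESCs (grey), NPCs (green), PSA-NCAM+ cells (purple) and neurons (red); filled points were called at FDR under 0.05, open points were not, and the triangle marks the bound for Tbr1 in ESCs, which had 0 counts in slow/slow cells. The changes of Dlx5 and Eomes lie above 0 in ESCs and NPCs and below 0 in neurons, and Lhx3 reaches 2.78 in neurons.

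Before differentiation the genotypes already differed at these genes, mostly at low levels. In ESCs 5 of 9 members were called, against 40.4% of all genes, with a median log2 change of 0.33 over the members (also with Tbr1 and Lhx3 set to the bound and ratio given below) and -0.02 over all genes. Eomes was at 6.20, 6.80 and 6.65 CPM in WT and 12.1, 13.5 and 10.4 CPM in slow/slow ESCs (0.88 ± 0.21, FDR = 0.0020). Tlx3 was at 0.501, 0.488 and 0.826 CPM in WT and 1.58, 1.64 and 1.46 CPM in slow/slow ESCs (1.35 ± 0.34, FDR = 0.0034). Both were higher in every slow/slow library than in every WT library. Dlx5 was higher (0.94 ± 0.33, FDR = 0.0276) and Isl1 lower (-0.68 ± 0.22, FDR = 0.0205), but the Dlx5 call was lost without WT ESC library 2 or slow/slow ESC library 3, and that of Isl1 without WT ESC library 3 or slow/slow ESC library 2 or 3.

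Tbr1 had 17, 3 and 5 counts in the WT ESC libraries and 0 in each slow/slow one, which makes it at least 1.95-fold lower against the floor of 3 counts per library (FDR = 0.000388). Without WT ESC library 1, which holds 17 of the 25 WT counts, it was at least 1.19-fold lower (FDR = 0.0027). Lhx3 had 13 counts in WT and 3 in slow/slow ESCs, a ratio of 3.48 (exact 95% counting interval 0.955 to 19.0) that was 6.36 without slow/slow ESC library 2, and was not called. Dlx1, Dlx2 and Mnx1 were not called.

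In NPCs 5 members were called, against 56.7% of all genes, with a median of 0.80 over the members and 0.01 over all genes. Eomes was at 4.29, 4.53 and 3.43 CPM in WT and 7.47, 5.39 and 6.58 CPM in slow/slow NPCs (0.67 ± 0.21, FDR = 0.00997), without overlap. Mnx1 was at 0.894, 0.755 and 0.885 CPM in WT and 0.414, 0.525 and 0.444 CPM in slow/slow NPCs (-0.88 ± 0.27, FDR = 0.00908). Mnx1 was therefore lower in slow/slow cells at day 7 as well as in neurons. Tbr1 (1.49 ± 0.52, FDR = 0.0205), Dlx5 (1.39 ± 0.42, FDR = 0.00836) and Lhx3 (1.19 ± 0.47, FDR = 0.0369) were higher, from 3 to 5, 2 to 10 and 8 to 14 counts per WT library. These 3 calls were each lost without some single library: Tbr1 without WT NPC 1 or slow/slow NPC 3, Dlx5 without WT NPC 3, and Lhx3 without WT NPC 1, 2 or 3 or slow/slow NPC 2 or 3. Tlx3 (0.83 ± 0.39, FDR = 0.0803), Dlx2, Dlx1 and Isl1 were not called.

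In PSA-NCAM+ cells 2 members were called, against 56.7% of all genes, with a median of 0.27 over the members and -0.01 over all genes. Lhx3 was at 0.162, 0.0778 and 0.0489 CPM in WT and 0.0817, 0.309 and 0.448 CPM in slow/slow cells, which overlapped (1.51 ± 0.49, FDR = 0.0129). Eomes was at 4.41, 7.57 and 5.72 CPM in WT and 3.02, 4.20 and 4.73 CPM in slow/slow cells, which overlapped too (-0.56 ± 0.21, FDR = 0.0273). Samples with the same number deviated together at this stage, so the number was also used as a block: both calls held with the block in the fit of all stages (FDR = 0.0194 for Lhx3 and 0.0312 for Eomes), and 0 members were called by edgeR in a blocked fit of the 6 PSA-NCAM+ samples alone (FDR = 0.224 and 0.0741), where 1 had an unadjusted p under 0.05; DESeq2 on all samples called 2. Lhx3 was lost without WT library 3 or slow/slow library 3 and was 2.22 without WT library 1, and Eomes without WT library 2 or 3 or slow/slow library 1 or 2.

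With both PSA-NCAM+ libraries numbered 1 left out, 4 members were called: Lhx3 (2.57) and Tlx3 (0.94, FDR = 0.024) higher and Eomes and Dlx1 (-0.95, FDR = 0.013) lower. Dlx2 shows how much 1 library weighs here. It was at 1.65, 1.07 and 0.717 CPM in WT and 3.41, 1.26 and 0.972 CPM in slow/slow cells (0.67 ± 0.37, FDR = 0.125), where library 1 was the highest of both groups, and without slow/slow library 1 the difference was -0.04. It was called higher without WT library 1 (1.05, FDR = 0.036) or without slow/slow library 3 (1.03, FDR = 0.021). Mnx1 (0.63 ± 0.27, FDR = 0.0562) was called higher without WT library 3 or slow/slow library 1 or 2, and Dlx1 (-0.59 ± 0.31) lower without slow/slow library 1.

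Whether the difference between genotypes itself changed from NPCs to neurons was tested with an interaction term, which uses the NPC samples of both genotypes. It was called for 5 of 9 members, against 55.1% of all genes, with a median of -1.23 over the members and -0.09 over all genes. Dlx5 changed most, from 1.39 in NPCs to -2.13 in neurons (interaction -3.52 ± 0.51, FDR = 9.98e-06). WT NPC library 2 weighs on this value and on each other Dlx5 change that uses the WT NPCs: without it the interaction was -4.39, the genotype change in NPCs 2.28, and the changes in WT -2.82 from ESCs to NPCs, 2.42 from NPCs to PSA-NCAM+ cells and 5.41 from NPCs to neurons, all still called. Dlx2 (-2.27 ± 0.62), Eomes (-1.63 ± 0.30) and Mnx1 (-1.54 ± 0.36) also shifted downwards, and Lhx3 shifted upwards (1.60 ± 0.62, FDR = 0.0349). The Lhx3 interaction was lost in 7 of 12 fits without 1 library (FDR 0.053 to 0.0922 in those: WT NPC 1 or 2, slow/slow NPC 1 or 3, WT neuron 1 or 3, slow/slow neuron 2). Tbr1 (-1.23 ± 0.62, FDR = 0.104), Tlx3 (-0.11 ± 0.47, FDR = 0.864), Isl1 (0.42 ± 0.28) and Dlx1 (-0.86 ± 0.47, FDR = 0.131) were not called, so for them a change of the genotype difference was not shown.

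From NPCs to PSA-NCAM+ cells the interaction was called for Mnx1 (1.51 ± 0.38, FDR = 0.0123) and Eomes (-1.23 ± 0.29, FDR = 0.00841), 2 of 9 members against 14.6% of all genes. Mnx1 was lower in slow/slow NPCs and had the higher mean in slow/slow PSA-NCAM+ cells. Neither was called when only the samples compared were fitted (FDR = 0.083 for Mnx1 and 0.067 for Eomes). With both libraries numbered 1 left out, Tbr1 was called as well (-1.85, FDR = 0.047), and without WT NPC library 2 Dlx5 was (-2.01, FDR = 0.033).

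Other genes of the same programmes, from lists that do not hold the 9 members, did not all move with them. Of 12 measured genes of the GABAergic programme, 6 were higher and 4 lower in slow/slow neurons, with a median log2 change of 0.68, while all genes had 51.9% called and a median of -0.06. The same share of all genes stands beside each list count in neurons below. Dlx6, the neighbour of Dlx5 in the distal-less family, was lower with the members (0.914 to 0.162 CPM on average from WT to slow/slow, -2.64 ± 0.48). The progenitor factors Gsx1 (1.01 to 26.6 CPM, 4.72 ± 0.45) and Gsx2 (2.04 ± 0.39), which act upstream of the Dlx genes in the ventral forebrain and also in the dorsal spinal cord, were higher. Chosen after their values were seen, Gad1, which makes GABA, was lower (62.6 to 15.3 CPM, -2.03 ± 0.36), while Slc32a1, which loads GABA into vesicles, was higher (5.10 to 20.2 CPM, 1.98 ± 0.30), and Gad2 was not called (-0.49 ± 0.32).

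The cortical glutamatergic list, to which Eomes and Tbr1 relate, had 9 of 12 genes higher and 3 not called in slow/slow neurons (median 0.92), where Eomes was lower and Tbr1 not called. The largest differences were those of Neurog2 (2.97 to 48.3 CPM, 4.02 ± 0.33), Pax6 (12.3 to 80.8 CPM, 2.72 ± 0.25) and Neurod1 (2.31 to 13.6 CPM, 2.56 ± 0.24), all of which also act outside the cortex.

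In the motor neuron list, 3 of 7 genes were higher and 2 lower, with a median of -0.32. Olig2, which acts in motor neuron and oligodendrocyte progenitors, was lower together with Mnx1 (22.8 to 0.883 CPM, -4.69 ± 0.44). The cholinergic genes Slc5a7 (0.179 to 1.11 CPM, 2.60 ± 0.52) and Chat (0.331 to 1.13 CPM, 1.75 ± 0.41), which serve choline uptake and acetylcholine synthesis, were higher, at low levels. Of 4 V2 interneuron genes considered beside Lhx3, 2 were higher and 2 not called, with a median of 1.22. Among them Sox14 was higher (0.647 to 2.23 CPM, 1.78 ± 0.38).

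Of 8 genes of the dorsal spinal and sensory programme beside Tlx3, 5 were higher and 3 not called, with a median of 0.79. Ptf1a (0.0438 to 1.46 CPM) specifies GABAergic neurons of the dorsal cord, Prrxl1 (1.32 to 10.8 CPM, 3.04 ± 0.37) acts with Tlx3 in nociceptive circuits, and Tlx1 (7.54 to 46.2 CPM, 2.62 ± 0.20) is the paralog of Tlx3. Lmx1b, the most abundant gene of the list, averaged 76.2 CPM in WT neurons and 122 CPM in slow/slow ones (0.67 ± 0.16).

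**Figure D4:**
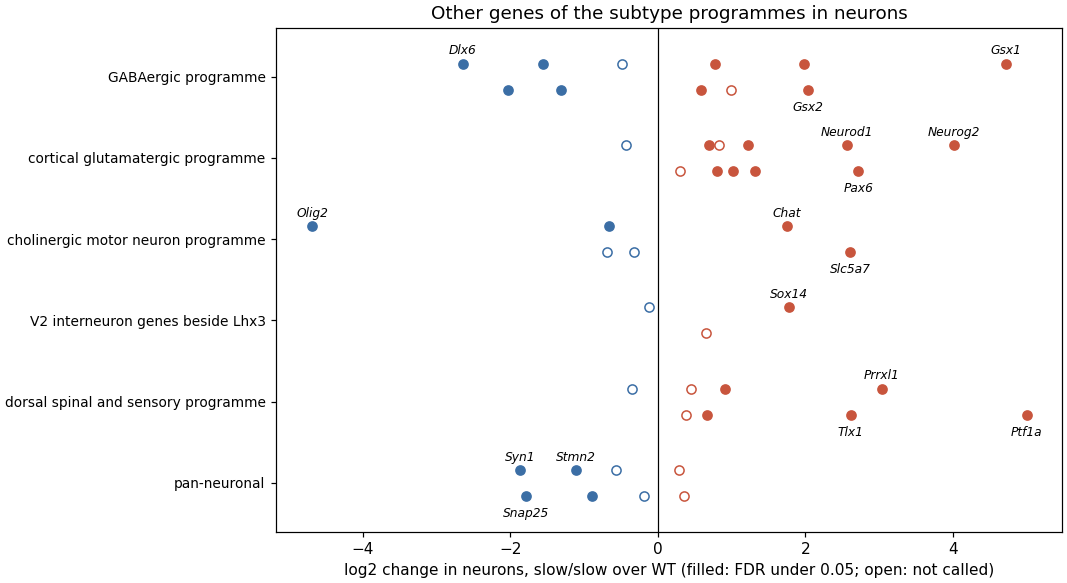
Log2 change of slow/slow over WT neurons (horizontal axis) for tested genes of 6 lists (rows) that do not hold the 9 members, without the 4 list genes whose values are not reported; red points lie above 0 and blue below, filled points were called at FDR under 0.05, and the names mark up to 3 called genes with the largest changes. GABAergic and motor neuron genes fall on both sides of 0, from Olig2 at -4.69 to Gsx1 at 4.72, and the 4 called pan-neuronal genes lie below 0.

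Markers of other cells and stages moved beside these results. Between genotypes, 51.9% of all genes were called in neurons and 56.7% in NPCs and also in PSA-NCAM+ cells. List counts near these shares, here and in the next paragraph, do not set a list apart from all genes. The pan-neuronal list had 4 of 8 genes lower and 4 not called in slow/slow neurons (median -0.73), led by Syn1 (221 to 60.3 CPM), Snap25 (208 to 60.2 CPM) and Stmn2, whereas Tubb3, the most abundant and on chromosome 8, was not called. At day 7 the same list was higher in slow/slow cells, with 7 of 8 genes called in NPCs (median 1.71), against 56.7% of all genes. Of 7 motor neuron genes, 6 were higher in slow/slow NPCs, where Mnx1 was lower. Neural progenitor genes were higher in 3 of 4 cases in slow/slow neurons, at 1166 to 1347 CPM in sum against 977 to 1165 CPM in WT. Of 6 pluripotency genes, 4 were higher and 1 lower in slow/slow neurons (median 0.46), although their sum was lower, at 87.2 to 90.9 CPM against 103.7 to 137.7 CPM in WT. In slow/slow NPCs 4 of the 6 were lower (median -1.23, sums of 1427 to 1638 CPM against 2193 to 2265 CPM in WT), and in slow/slow PSA-NCAM+ cells 4 were lower too (median -1.33). The part of these shifts in the members' differences was not tested.

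Beside the lower Eomes in slow/slow neurons, 5 of 9 mesendoderm and endoderm genes were lower and 4 higher, and the list summed to 128 to 152 CPM in WT and 49.3 to 66.8 CPM in slow/slow neurons. From WT to slow/slow neurons, T went from 76.8 to 6.97 CPM and Mixl1 from 6.49 to 0.401 CPM, while Afp went from 0.0212 to 9.60 CPM. Of 4 trophoblast genes, 2 were higher, 1 lower and 1 not called in slow/slow neurons (median 1.10), while their sum was lower, at 67.9 to 75.0 CPM in WT and 22.5 to 26.6 CPM in slow/slow. The lower gene, Cdx2, averaged 50.7 CPM in WT neurons and 2.65 CPM in slow/slow ones. Of 5 cardiac genes 3 were higher and 1 lower in slow/slow neurons, with summed levels of 4.87 to 5.58 CPM in WT and 4.89 to 9.50 CPM in slow/slow. Of 3 tested pancreatic genes 2 were higher and 1 lower, with sums of 0.322 to 0.443 CPM and 4.10 to 5.29 CPM, and Ins1 was at 0 in all neuron libraries. Some lists share genes: Ptf1a is in the pancreatic and the dorsal spinal list, and Gata3 in the trophoblast and the V2 interneuron list. Those lists are thus not separate readings. The non-neural ectoderm and neural crest list, which holds Dlx3 and Dlx4, had 3 genes higher and 1 lower of 7 (156 to 201 CPM in WT and 338 to 364 CPM in slow/slow), the opposite direction in sum to Dlx1, Dlx2 and Dlx5. Of 4 tested astrocyte genes 3 were lower and 1 higher, and of 5 oligodendrocyte genes 3 were higher and 1, Olig1, lower. At the PSA-NCAM+ stage the ectoderm list summed to 2105 to 5684 CPM in WT and 428 to 3084 CPM in slow/slow cells, mostly from the keratins Krt8 and Krt18, both on chromosome 15. The part of any of these cells in the members' levels was not tested.

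Genes whose levels followed each member most closely over the 24 samples were found by Pearson's r of log2(CPM + 1), which mostly reflects the step to neurons and the genotype within it, since samples share stage and genotype. Dlx1 was most like Unc13c, Negr1 and Lmcd1 (r = 0.99 for each), and Mnx1 most like Bcan, Mlc1 and AC079082.1 (0.98). Dlx5 was most like T (0.96), the mesodermal T-box gene, then Prr3 and Pcp4l1, and Dlx2 most like Zwint, Gcap14 and Dcaf10 (0.95). Lhx3 was most like Neurog1, Prdm13 and Dbx2 (0.98 to 0.97), which were also highest in slow/slow neurons (Neurog1 at 37.5 CPM on average). Isl1 was most like Dcn, Slitrk6 and Tspan11 (0.99 to 0.98), Tlx3 most like Gm9885, Vta1 and Ccdc28b (0.99 to 0.97), and Eomes most like Pmm2, Srp19 and Pnpla6 (0.91 to 0.90). Among the members, r was highest between Isl1 and Tlx3 (0.92), above that of Isl1 with Lhx3 (0.81) and with Mnx1 (0.64). Eomes had negative r with every other member but Dlx5 (0.08).

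Splicing gave a second readout of the members. The deposited table listed 40 events in the 9 genes, and only at the neuron stage, in Isl1 and Tlx3, did events pass the coverage filters in all 6 samples, 10 entries in all, of which 2 are the alternative sites of 1 choice. An Isl1 intron (mm9 chr13:117093541-117095425) was retained at 0.74 ± 1.28 percent in WT and 9.11 ± 5.43 percent in slow/slow neurons (SD, n = 3, exact two-sided permutation p = 0.1, the smallest that 3 against 3 allows, from 15 to 53 reads). The Isl1 exon just before it (mm9 chr13:117095426-117095685) was included at 100 percent in WT and 93.6 ± 4.57 percent in slow/slow neurons (exact p = 0.1). A Tlx3 intron (mm9 chr11:33101490-33102428) was retained at 3.84 ± 0.51 percent in WT and 8.46 ± 1.66 percent in slow/slow neurons (exact p = 0.1, from 72 to 185 reads). The other 7 entries differed by at most 3.21 percentage points, with exact p from 0.2 to 1. No event reached a p under 0.05, which this design cannot give.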

How the data were processed

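Per the study's methods, libraries of poly(A) RNA from separate differentiation experiments were read as pairs. Mapping by the authors was to mm9, with vast-tools for splicing. The authors deposited raw gene counts per sample, which were not normalised, and RPKM values averaged over each group. Log2 fold changes and adjusted p-values of the authors' own tests, and a table of their splicing calls per group, were not used. For splicing, the authors deposited percent spliced in (PSI) per event and sample, with vast-tools quality strings that hold coverage classes, balance scores and corrected reads. Whether counting was stranded is not given in the sources used here. The members and the gene lists were chosen with earlier results of these data known.

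From the counts, genes were filtered with filterByExpr by group, and libraries were scaled by TMM. A model of the 8 groups over all 24 samples was tested with edgeR 4.0.16 (quasi-likelihood F test) in R 4.3.3, with Benjamini-Hochberg adjustment over 16627 genes and a threshold of 0.05. SE is the log2 change divided by the square root of F. Expression is given as TMM-scaled CPM. Library totals ran from 32974432 to 104466886 counts, so that most members had under 100 counts per library before the neuron stage. Intervals and floors cover counting error only. Splicing events passed with vast-tools coverage and balance classes, introns with at least 15 reads, in all 6 samples of a stage. Code was tested on simulated data with known changes.

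All members are named. For each member whose mean reached 1 CPM in some group, so are the 3 genes with the highest Pearson correlation with it of log2(CPM + 1) over the 24 samples. From each other list, at most the 3 called genes with the largest change per genotype comparison are named, and for cell type lists the most abundant gene; exceptions are stated. Dlx6os1, Dlx1as, Slc18a3, Map2, Sox1, Tfap2c and Tfap2a of the lists were not analysed here, and the values of 4 further list genes are not reported here. Deviations of same-numbered WT and slow/slow samples from their group means correlated at 0.586, 0.593 and 0.462 in PSA-NCAM+ cells, so they deviated together at that stage. They did not all do so in ESCs (0.398, -0.211 and -0.259), NPCs or neurons. With 3 samples per group this does not settle whether the numbers pair samples at those stages. Alternatives were other scalings (DESeq2 1.42.0 size factors, upper quartile), no filter, DESeq2's Wald test, a replicate block, fits of only the compared samples, a minimum change, leaving out each sample, and, chosen after seeing the data, leaving out both PSA-NCAM+ libraries numbered 1 and a blocked fit of PSA-NCAM+ samples alone. Of per-sample columns, 0 were left unused.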

Additional observations from a re-analysis of the deposited data

Results flagged for a closer look

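The difference between slow/slow and WT cells changed from NPCs to neurons, by the interaction test, for 5 of 9 members. Of all genes 55.1% were called in that test, so the count of members was near the share of all genes. On the log2 scale the shift was -3.52 for Dlx5, -2.27 for Dlx2, -1.63 for Eomes and -1.54 for Mnx1, and 1.60 for Lhx3. Dlx5, Dlx2 and Eomes had a mean above WT in slow/slow NPCs and below WT in slow/slow neurons, whereas Mnx1 was below WT at both stages and Lhx3 above WT at both. From NPCs to PSA-NCAM+ cells the shift was -1.23 for Eomes and 1.51 for Mnx1, where 14.6% of all genes were called. Neither was called when only the samples compared were fitted. Both stage pairs use the same NPC samples.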

How the results depend on the processing

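Low counts before the neuron stage limit which differences could be called. Requiring a log2 change of at least 1 can only remove calls: it left 2 members between genotypes for ESCs, 3 for NPCs, 1 for PSA-NCAM+ cells, 5 for neurons, and 2 from NPCs to PSA-NCAM+ cells in slow/slow cells. Over all genes it took genotype calls from 6720 to 2281 for ESCs, from 8626 to 3365 for neurons, from 9424 to 3793 for PSA-NCAM+ cells and from 9423 to 3569 for NPCs. Stage calls went from 10913 to 5137, 6862 to 1971 and 13336 to 8760 in WT (ESCs to NPCs, NPCs to PSA-NCAM+ cells, NPCs to neurons) and from 10358 to 5165, 7033 to 2402 and 12470 to 7138 in slow/slow cells; interaction calls went from 9161 to 4938 for neurons and from 2421 to 933 for PSA-NCAM+ cells.

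Fitting only the samples compared, edgeR called 0 members between genotypes in PSA-NCAM+ cells (0 at an unadjusted p under 0.05) and 0 for the interaction there (3 at an unadjusted p under 0.05), where DESeq2 on all samples called 2 each. It called 4 members from NPCs to PSA-NCAM+ cells in WT and 1 in slow/slow cells. All-gene calls fell to 3641 between genotypes in PSA-NCAM+ cells, 2525 from NPCs to PSA-NCAM+ cells in slow/slow cells and 668 for that interaction. The all-gene interaction count was 4248 without slow/slow PSA-NCAM+ library 1 and 5200 without both PSA-NCAM+ libraries numbered 1. Without both, 4 members were called between genotypes, and uncalled log2 changes turned to -0.38 for Tbr1, and in the interaction to -0.32 for Dlx1 and 0.14 for Tlx3.

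With the replicate block and the PSA-NCAM+ samples alone, edgeR called 0 members (1 at an unadjusted p under 0.05; DESeq2 without the block called 2). With the replicate block over all samples, 7 members were called between genotypes in neurons, where Tlx3 was lost (FDR = 0.0504), and the counts were 2 in PSA-NCAM+ cells, 5 in NPCs and 5 in ESCs. At the other stages same-numbered samples did not all deviate together, which does not settle whether the numbers pair them. The block turned the uncalled Dlx2 change from ESCs to NPCs in slow/slow cells to -0.000716. That change was -0.031 with DESeq2 size factors, -0.033 with only the samples compared and -0.015 with DESeq2's Wald test.

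Upper-quartile scaling moved the median of all genes from 0.04 to -0.23 from NPCs to neurons in WT and from -0.06 to 0.08 between genotypes in neurons. It turned 4 uncalled changes: Isl1 from ESCs to NPCs in WT (0.053), Eomes from NPCs to neurons in WT (-0.0044), Mnx1 from ESCs to NPCs in slow/slow cells (0.030) and the Tlx3 interaction in neurons (0.076, and 0.013 with only the samples compared).

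Leaving out 1 library gave 3 to 5 members called between genotypes in ESCs and also in NPCs, 1 to 3 for PSA-NCAM+ cells, and 3 to 5 from NPCs to PSA-NCAM+ cells in slow/slow cells. Changes that turned sign ran from -0.22 to 0.26 for Dlx1 in ESCs, -0.16 to 0.33 for Tbr1 and -0.035 to 1.05 for Dlx2 in PSA-NCAM+ cells, and -0.021 to 0.49 for Tbr1 in neurons. From ESCs to NPCs they ran from -0.11 to 0.49 for Dlx1 and -0.14 to 0.11 for Isl1 in WT, and from -0.36 to 0.24 for Dlx2 and -0.21 to 0.26 for Mnx1 in slow/slow cells. Interactions ran from -0.32 to 0.15 for Tlx3 in neurons, and in PSA-NCAM+ cells from -0.27 to 0.34 for Dlx1, -0.83 to 0.25 for Dlx2, -0.091 to 0.26 for Isl1 and -0.11 to 1.03 for Lhx3. Of these, Dlx2 between genotypes in PSA-NCAM+ cells was called higher without WT library 1 (FDR = 0.036) and without slow/slow library 3 (FDR = 0.021), and the others were called in no such fit.

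With at least 50 reads per sample, 4 splicing entries passed. Of the members' log2 changes under all alternatives, 1402 kept direction and call, 95 lost the call, 13 gained it and 40 turned sign. Apart from the minimum change and the smaller sets of samples, the cause was not tested.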
